A study of Mus musculus with 23 samples.

Results

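The 9 genes described here encode hormones or secreted regulators made by hepatocytes: Fgf21, Gdf15, Angptl4, Angptl6, Fst, Inhbe, Enho, Lect2 and Fgl1. They were taken by name from the 24062 genes of the count tables, all 9 were found, and all 9 were among the 14196 genes that passed the filter on low counts. The measurements are polyA-selected RNA sequencing of 23 livers, 1 library per mouse, all from a mixed B6/129 strain. Wild-type (WT) mice received saline (7 mice, 29 to 45 weeks old) or L-AC (6 mice, 28 to 44 weeks), and Ehhadh knockout (KO) mice received saline (5 mice, 31 to 44 weeks) or L-AC (5 mice, 28 to 38 weeks). Ehhadh encodes the L-bifunctional protein of peroxisomal beta-oxidation. L-AC appears in the labels as an abbreviation only, and as background L-aminocarnitine blocks carnitine palmitoyltransferase 2, which mitochondria need to oxidise long-chain fatty acids. The dose and duration of L-AC, the deleted part of Ehhadh and the feeding state of the mice are not stated in the labels.

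The liver answers fasting and nutrient stress by secreting proteins that act on other organs. FGF21 and GDF15 are the best known of them: FGF21 signals through FGF receptors with the co-receptor beta-Klotho, and GDF15 through GFRAL in the hindbrain. ANGPTL4 inhibits lipoprotein lipase, follistatin (Fst) binds activins, and Inhbe encodes the activin beta-E subunit. Transcription of Fgf21 is classically driven by the nuclear receptor PPARA during fasting and by ATF4 during amino acid or mitochondrial stress.

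Promoter sequences, from RefSeq (build GRCm38.p6, 250 bases before to 50 after the start), were at hand for 5 members: Fgf21, Gdf15, Inhbe, Angptl6 and Lect2. Shown are the promoters of 2 genes that rose under L-AC in both genotypes and of 2 that fell in both. Each is the minus strand, read 5′ to 3′, and capitals mark matches to the motifs searched. The windows are chr7:45615441-45615740 for Fgf21, chr10:127351799-127352098 for Inhbe, chr9:20879661-20879960 for Angptl6 and chr13:56548489-56548788 for Lect2.
Fgf21: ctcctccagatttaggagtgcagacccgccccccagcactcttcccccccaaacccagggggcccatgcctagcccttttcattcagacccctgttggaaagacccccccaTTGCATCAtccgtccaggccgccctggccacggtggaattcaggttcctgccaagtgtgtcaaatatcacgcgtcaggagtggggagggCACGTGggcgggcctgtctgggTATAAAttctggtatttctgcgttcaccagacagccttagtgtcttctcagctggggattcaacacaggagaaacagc
Inhbe: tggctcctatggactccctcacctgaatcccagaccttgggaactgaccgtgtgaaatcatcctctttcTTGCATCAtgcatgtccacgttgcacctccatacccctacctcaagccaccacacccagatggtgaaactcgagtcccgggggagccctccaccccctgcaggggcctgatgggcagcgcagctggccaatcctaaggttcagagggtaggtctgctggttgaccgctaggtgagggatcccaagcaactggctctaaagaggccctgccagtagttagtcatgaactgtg
Angptl6: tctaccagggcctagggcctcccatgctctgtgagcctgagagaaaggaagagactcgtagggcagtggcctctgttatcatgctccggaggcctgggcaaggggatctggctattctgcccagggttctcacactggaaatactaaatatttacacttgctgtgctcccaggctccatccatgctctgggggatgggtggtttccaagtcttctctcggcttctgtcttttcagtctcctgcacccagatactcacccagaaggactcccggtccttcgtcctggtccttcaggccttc
Lect2: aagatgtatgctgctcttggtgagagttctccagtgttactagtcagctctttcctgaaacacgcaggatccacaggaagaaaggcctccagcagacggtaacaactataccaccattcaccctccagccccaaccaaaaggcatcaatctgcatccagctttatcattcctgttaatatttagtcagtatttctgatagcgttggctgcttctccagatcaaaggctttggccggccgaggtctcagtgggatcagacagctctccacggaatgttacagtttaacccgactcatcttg

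The motifs were chosen after the sequences and earlier results had been seen. TGATGNAA, a composite element known to be bound by C/EBP and ATF factors, was searched on both strands and was found as TTGCATCA in Fgf21, 139 bases before the start, and in Inhbe, 181 bases before the start. The same 8 letters stand in both promoters, and 3.97% of the 32851 promoters in the table hold a match to the element. An E-box, CACGTG, read the same on both strands, lies 50 bases before the start of Fgf21 and 83 bases before the second of 2 annotated starts of Gdf15, and 7.15% of promoters hold one. A TATA box, TATAAA as written, lies 28 bases before the start of Fgf21 and is held by 8.32% of promoters. The direct repeat DR1, which is AGGTCA, any 1 base and AGGTCA again on either strand, and is the consensus of PPARA with its partner RXR, was found in none of the members' promoters and in 0.0396% of all. The cAMP response element TGACGTCA was found in none of them and in 1.79% of all. The Angptl6 and Lect2 windows held none of the 5 motifs. A match is a run of letters and no evidence of binding. The RefSeq start of Inhbe lies 76 bases upstream of the start in the count tables, and those of Gdf15 lie 460 and 821 bases upstream.

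Libraries held 24521896 to 48095959 counted reads. Ehhadh checked the labels: on saline its mean level was 954 ± 335 CPM (SD, n = 7) in WT and 142 ± 64.4 (n = 5) in KO mice, and on L-AC it was 13040 ± 1602 (n = 6) and 1658 ± 286 (n = 5). CPM, the usual unit of counts scaled by library size, is used for all levels unless a length is named. Hepatocyte markers were abundant in every library, their summed level on saline being 52900 to 64100 CPM in WT and 56700 to 67100 in KO mice, and on L-AC 41500 to 49900 and 30400 to 52700. Of 6 such markers, 3 fell and 1 rose under L-AC in WT, and 3 fell and none rose in KO. Their part in the results below was not tested. The labels do not name batches.

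Under L-AC, 6 of the 9 members passed the test in WT mice (adjusted p under 0.05, edgeR quasi-likelihood), 3 higher and 3 lower. Of all genes tested, 53.3% passed in that comparison, 26.6% higher and 26.7% lower. In KO mice 5 of 9 passed, 2 higher and 3 lower, against 48.8% of all genes, 25.2% higher and 23.6% lower. The members' shares thus stood near those of the transcriptome at large. Fgf21 and Inhbe rose in both genotypes, Angptl4 passed in WT alone, Angptl6, Enho and Lect2 fell in both, and Gdf15, Fst and Fgl1 passed in neither. In bulk liver, fewer cells of a type and less RNA per cell cannot be told apart.

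**Figure D1:**
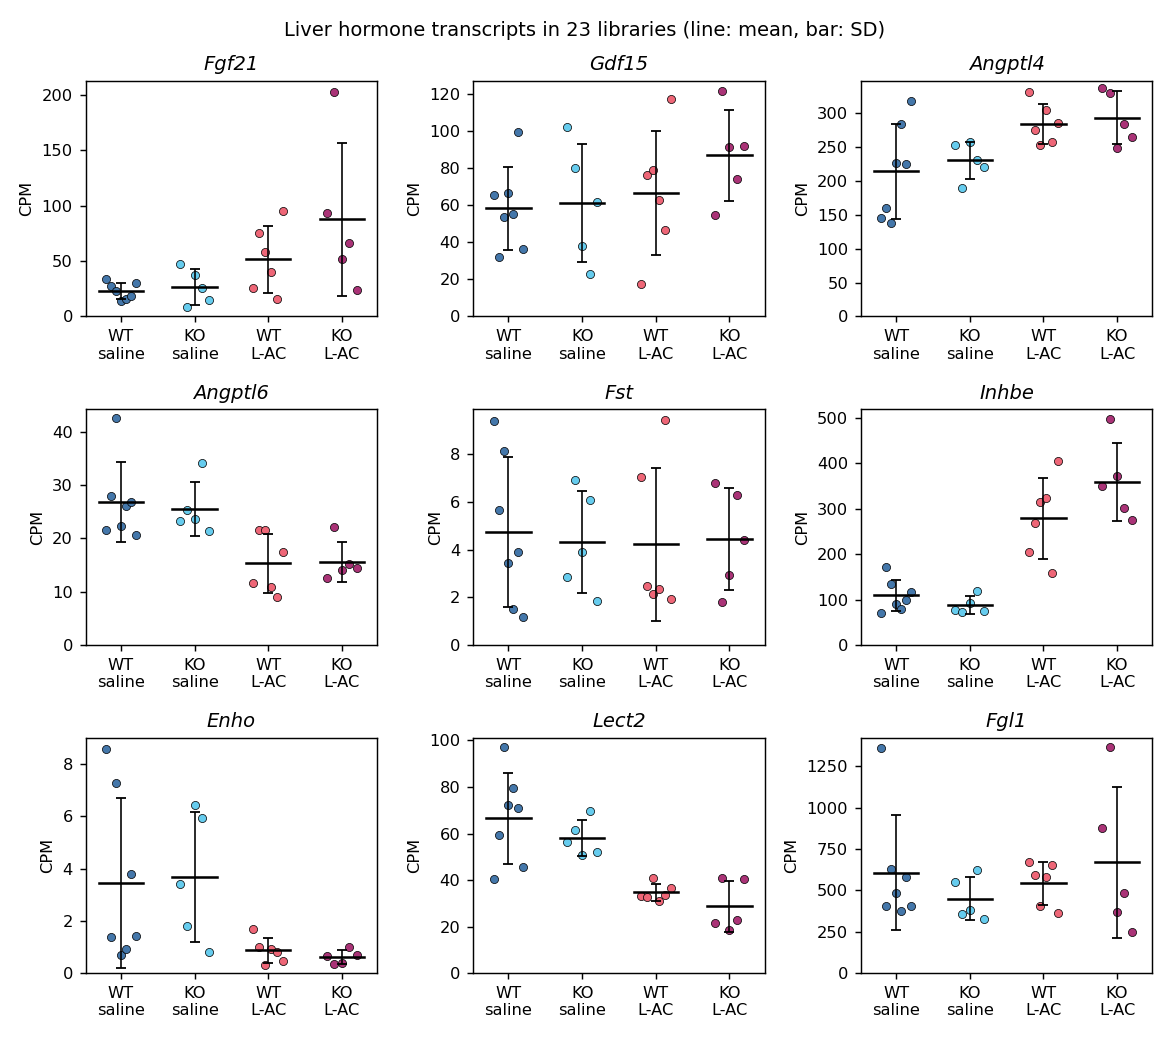
Each panel shows 1 gene, with the level in CPM on the vertical axis and 1 point per mouse in the 4 groups (WT or KO, saline or L-AC), the line being the group mean and the bar the SD. Inhbe rose and Lect2 fell with separate groups in KO, while Fgf21 spread from 23.61 to 202.9 CPM among the 5 KO mice on L-AC.

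Fgf21 (chr7:45613890-45615490 on mm10, minus strand) encodes a fasting hormone that promotes fatty acid oxidation and ketogenesis. In WT mice its level was 13.58 at the lowest, 23.34 at the median and 33.56 at the highest on saline, and 15.66, 49.12 and 94.89 CPM on L-AC. Of the 6 WT mice on L-AC, 4 lay above every WT mouse on saline, and 2 lay within the saline range. In KO mice on saline the 5 levels were 47.18, 8.345, 37.6, 25.52 and 14.68 CPM, and in KO mice on L-AC they were 93.76, 202.9, 51.78, 66.38 and 23.61. Here too 4 of the 5 mice exceeded all saline mice, and the remaining one was within their range. WT mice thus had 2.23 times the saline level (log2 1.16, SE 0.45, adjusted p = 0.0326) and KO mice 3.29 times (log2 1.72, SE 0.52, adjusted p = 0.0088). The WT call was lost in 6 of the 23 fits that each left out 1 library, those without WT saline replicate 4, 5 or 6 or without WT L-AC replicate 2, 3 or 6 (log2 fold change 0.89 and adjusted p = 0.106 without the last), and with limma-voom (adjusted p = 0.0812). In KO the call rested on replicate 2 of the L-AC mice, the library at 202.9 CPM. Without it the log2 fold change was 1.14 and no longer passed (adjusted p = 0.0552).

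Of 7 genes listed for the receipt and turnover of FGF21, 5 were tested, and 3 of them fell in each genotype while none rose. The median log2 fold change of the list was -0.84 in WT and -0.76 in KO, against -0.009 and -0.005 over all genes. Klb, the co-receptor beta-Klotho, fell from 26.5 ± 2.23 to 14.8 ± 2.22 CPM in WT (-0.84, SE 0.12, adjusted p = 4.45e-06) and changed by -1.21 in KO (SE 0.14, adjusted p = 2.37e-07). Fgfr4, the main FGF receptor of hepatocytes, changed by -1.03 in WT (SE 0.15, adjusted p = 8.44e-06) and -0.76 in KO (SE 0.17, adjusted p = 0.00101). For Fgfr3 the values were -1.27 in WT (SE 0.14, adjusted p = 1.1e-07) and -1.10 in KO (SE 0.15, adjusted p = 4.92e-06). Kl, the alpha-Klotho co-receptor, had at most 2 reads in a library, and Fap, whose protease inactivates human FGF21, at most 9.

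Gdf15 (chr8:70629394-70631635, minus strand) encodes a stress hormone of the TGF-beta superfamily that lowers food intake. Its level in WT mice was 32.34, 55.36 and 99.56 CPM (lowest, median, highest) on saline and 17.69, 69.61 and 117.6 on L-AC. The L-AC range was wider at both ends. In KO mice on saline the levels were 102.5, 80.22, 38.19, 22.75 and 61.69 CPM, and on L-AC 54.91, 121.9, 91.66, 74.43 and 91.84. The groups overlapped in both genotypes, and neither difference passed the test: 0.19 on the log2 scale in WT (SE 0.35, adjusted p = 0.664, 95% interval -0.53 to 0.91) and 0.51 in KO (SE 0.40, adjusted p = 0.296, interval -0.31 to 1.33). A 2-fold rise lies inside the KO interval and just outside that of WT. Gfral had 0 reads in every library, and its partner Ret had at most 4.

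**Figure D2:**
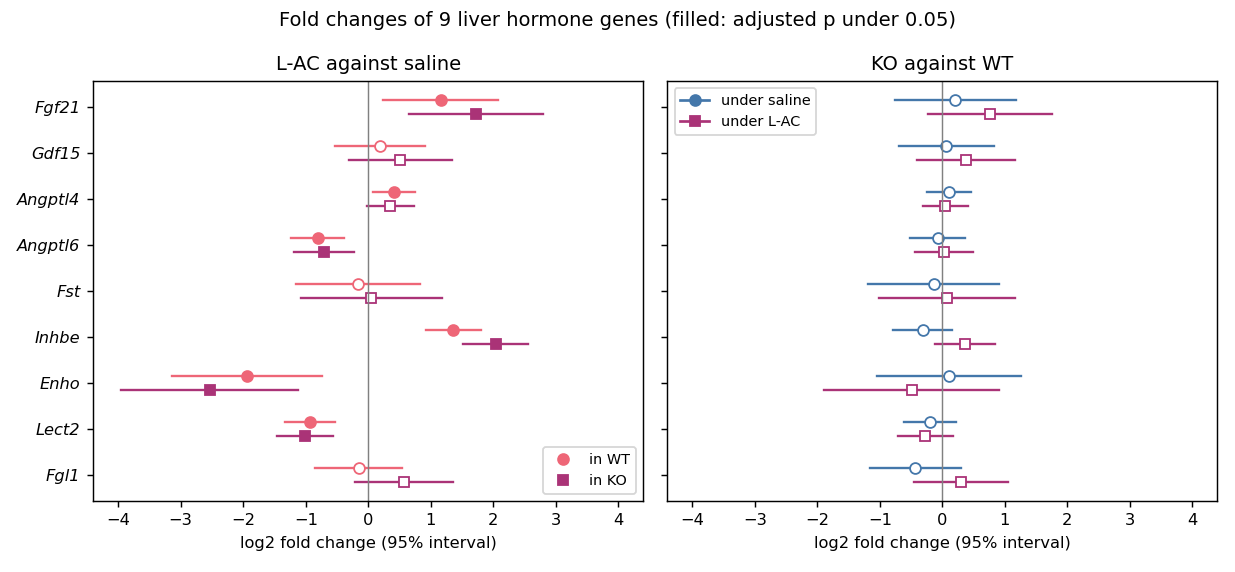
The left panel shows the log2 fold change of L-AC against saline in WT (circles) and KO (squares), and the right panel KO against WT under saline (circles) and L-AC (squares), each with its 95% interval and filled where the adjusted p was under 0.05. All the filled symbols are on the left, from Enho at -2.54 to Inhbe at 2.04, both in KO.

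Angptl4 (chr17:33774900-33781575, minus strand), a PPARA target, had the smallest fold change of the members called. In WT mice it stood at 137.7, 224.7 and 317.7 CPM (lowest, median, highest) on saline and at 251.9, 279.6 and 330.5 on L-AC. Saline mice spread over a wide range whose upper part held most of the L-AC mice, 1 of which lay above all saline mice. In KO mice the levels were 252.2, 188.6, 257.3, 230.6 and 220.2 CPM on saline and 336.7, 329.6, 248.5, 283.7 and 264.5 on L-AC, 4 of the 5 L-AC mice above all saline mice. The rise in WT was 1.33-fold (log2 0.41, SE 0.16, adjusted p = 0.0339), and the KO difference of 0.35 (SE 0.18) did not pass (adjusted p = 0.116). The WT call was lost without WT saline replicate 1, 2 or 3 or without WT L-AC replicate 1 or 4 (adjusted p up to 0.0781), and when only the groups compared were fitted (adjusted p = 0.0732). That last fit called the KO difference instead (0.34, adjusted p = 0.0367).

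Angptl6 (chr9:20873809-20879710, minus strand) encodes angiopoietin-related growth factor, which in mice counters obesity and insulin resistance. Its level in WT mice was 20.7, 26.06 and 42.52 CPM (lowest, median, highest) on saline and 9.027, 14.52 and 21.55 on L-AC. Of the 6 L-AC mice, 4 were below every saline mouse, and the other pair lay near the lowest saline value. In KO mice it was 23.23, 25.37, 23.63, 34.16 and 21.38 CPM on saline and 12.52, 22.06, 13.98, 15.12 and 14.39 on L-AC, with 4 of 5 below all saline mice. It fell by 0.81 on the log2 scale in WT (SE 0.21, adjusted p = 0.00218) and by 0.71 in KO (SE 0.23, adjusted p = 0.0147), the latter lost without KO saline replicate 4 (-0.58, adjusted p = 0.0521). The value is uncertain, because 264 of its 1564 exonic bases (16.9%) are shared with A230050P20Rik on the opposite strand and reads were counted without strand. A230050P20Rik was the more abundant of the pair, at 83.2 ± 22.3 CPM in WT saline (n = 7), and per exon length it stood at 49.4 CPM per kb there against 17.2 for Angptl6. It fell as well, by 0.87 in WT (SE 0.24, adjusted p = 0.00369) and by 0.78 in KO (SE 0.27, adjusted p = 0.019).

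The other angiopoietin-like and fibrinogen-like genes held a steep fall. Of 8 tested, 2 fell in each genotype and none rose, with a median of -0.27 in WT and -0.44 in KO. Gm6484 is the files' older name of Angptl8, which encodes an insulin-responsive protein that takes part in the inhibition of lipoprotein lipase. Its level was 33.0 ± 16.5 CPM in WT saline (n = 7) and 1.84 ± 0.489 in WT L-AC (n = 6), a log2 fold change of -4.15 (SE 0.36, adjusted p = 3.63e-09), and the KO change was -3.64 (SE 0.39, adjusted p = 1.1e-07). The lipase inhibitors moved apart in WT, Angptl4 higher and Gm6484 lower. Among 10 genes of plasma triglyceride lipolysis, 1 rose and 2 fell in each genotype (median -0.29 in WT and -0.01 in KO). Lipc, hepatic lipase, changed by -1.11 in WT (SE 0.12, adjusted p = 7.09e-08) and -1.34 in KO (SE 0.13, adjusted p = 3.65e-08). Lmf1, a lipase maturation factor, changed by -0.49 in WT (SE 0.09, adjusted p = 0.00011) and -0.46 in KO (SE 0.10, adjusted p = 0.000918). Furin, a protease that cleaves ANGPTL4, rose by 0.56 in WT (SE 0.09, adjusted p = 1.75e-05) and 0.54 in KO (SE 0.10, adjusted p = 0.000161).

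Inhbe (chr10:127349402-127351772, minus strand) gave the clearest rise of the members. Activin E, its product, is a hepatokine that restrains lipolysis in adipose tissue. In WT mice Inhbe was at 70.43, 98.73 and 170.5 CPM (lowest, median, highest) on saline and at 158.2, 291.8 and 405 on L-AC, 5 of the 6 L-AC mice above all saline mice. In KO mice it was at 77.75, 72.08, 92.53, 119.6 and 74.91 CPM on saline and at 350.3, 496.7, 370.8, 300.6 and 274.9 on L-AC. The KO groups did not overlap, which held for 32.6% of all genes tested in that comparison. Inhbe rose 2.56-fold in WT (log2 1.36, SE 0.21, adjusted p = 1.54e-05) and 4.1-fold in KO (log2 2.04, SE 0.25, adjusted p = 8.53e-07). Both calls held in each of the 30 other fits, with log2 fold changes from 1.22 to 1.5 in WT and from 1.89 to 2.18 in KO.

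Follistatin, the activin antagonist, showed no such change. Fst (chr13:114452262-114458730, minus strand) was among the least abundant members, with 48 to 344 reads per library. In WT mice it was at 1.187, 3.925 and 9.386 CPM (lowest, median, highest) on saline and at 1.916, 2.405 and 9.467 on L-AC. In KO mice the levels were 2.864, 6.919, 3.92, 6.102 and 1.846 CPM on saline and 6.788, 1.813, 2.934, 6.292 and 4.414 on L-AC. The groups overlapped throughout, and the log2 differences were -0.16 in WT (SE 0.48, adjusted p = 0.797, 95% interval -1.15 to 0.83) and 0.05 in KO (SE 0.55, adjusted p = 0.948, interval -1.08 to 1.18). A 2-fold fall lies inside both intervals, and a 2-fold rise inside that of KO.

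Of the 4 other activin and inhibin subunits listed, 3 were tested, and 2 of them fell in each genotype and none rose. Inhbc, the beta-C subunit, like Inhbe expressed mainly in liver, changed from 129.2 ± 31.1 to 58.7 ± 21.2 CPM in WT (-1.14, SE 0.25, adjusted p = 0.00066) and by -1.13 in KO (SE 0.28, adjusted p = 0.00237). Inhba, the beta-A subunit, was near 1 CPM and changed by -0.91 in WT (SE 0.33, adjusted p = 0.023) and -1.01 in KO (SE 0.38, adjusted p = 0.0329). Of 8 activin receptors and SMAD signal transducers, 3 rose and 3 fell in each genotype (median -0.18 in WT and -0.27 in KO). The type I receptor Acvr1b rose by 0.66 in WT (SE 0.16, adjusted p = 0.00147) and Smad3 fell by 0.91 (SE 0.19, adjusted p = 0.000329). Smad2 and Smad4 rose by 0.29 (SE 0.09, adjusted p = 0.00645) and 0.31 (SE 0.10, adjusted p = 0.0116) in WT, while Acvr1 fell by 0.63 (SE 0.09, adjusted p = 4.38e-06) and the inhibitory Smad7 by 0.58 (SE 0.20, adjusted p = 0.0164). Of 3 further genes listed as regulators of activin signalling, 1 rose and 1 fell in WT. Tgfbr3, the co-receptor betaglycan, rose by 0.57 (SE 0.15, adjusted p = 0.00253), and the decoy receptor Bambi fell by 0.50 (SE 0.20, adjusted p = 0.0426). In KO 1 of the 3 fell and none rose. Acvr1c, a type I receptor that adipocytes use for activin E in mice, had at most 8 reads in a library.

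Enho (chr4:41638144-41640302, minus strand) encodes adropin, a secreted peptide tied to the use of carbohydrate and fat as fuel. It showed the largest fold change of the members on the smallest counts, 8 to 254 reads per library. In WT mice it was at 0.6962, 1.437 and 8.576 CPM (lowest, median, highest) on saline and at 0.3232, 0.886 and 1.688 on L-AC. Saline mice ran from the L-AC range to several times above it, and only 2 of the 6 L-AC mice were below all of them. In KO mice Enho was at 3.401, 1.803, 6.439, 5.939 and 0.8156 CPM on saline and at 0.6481, 0.3778, 0.4143, 1.001 and 0.71 on L-AC, 4 of the 5 below all saline mice. Enho fell 3.84-fold in WT (log2 -1.94, SE 0.58, adjusted p = 0.00725) and 5.81-fold in KO (log2 -2.54, SE 0.68, adjusted p = 0.00385). With limma-voom the WT call was lost (-1.45, adjusted p = 0.0702). Its exons share 15 bases with Dnaic1 on the opposite strand, a gene at a mean of 0.100 CPM or less in every group.

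Lect2 (chr13:56542460-56548538, minus strand) encodes leukocyte cell-derived chemotaxin 2, a hepatokine linked to insulin resistance in muscle. In WT mice it stood at 40.62, 70.99 and 97.04 CPM (lowest, median, highest) on saline and at 31.2, 33.38 and 41.09 on L-AC, 5 of the 6 L-AC mice below all saline mice. In KO mice it was at 56.27, 61.43, 50.73, 69.6 and 52.01 CPM on saline and at 21.42, 40.76, 18.47, 22.74 and 40.5 on L-AC, with no overlap. L-AC mice were tightly grouped in WT, whereas in KO 3 lay between 18.47 and 22.74 and the other pair above 40 CPM. Lect2 fell 1.91-fold in WT (log2 -0.94, SE 0.19, adjusted p = 0.000324) and 2.02-fold in KO (log2 -1.01, SE 0.22, adjusted p = 0.000607), and both calls held in each of the 30 other fits. No overlap was seen for 32.6% of all genes tested in KO and 24.1% in WT, where each of the 9 members overlapped.

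Fgl1 (chr8:41191434-41215156, minus strand) encodes hepassocin, a liver-secreted growth factor and ligand of the immune receptor LAG3. It stood at 374.9, 483.7 and 1361 CPM (lowest, median, highest) in WT saline and at 361.9, 589.4 and 670.4 in WT L-AC. In KO mice it was at 552.8, 360.6, 382.1, 623.7 and 328.5 CPM on saline and at 875.2, 1362, 369.8, 483.8 and 252.5 on L-AC. One WT saline mouse and 1 KO L-AC mouse stood far above their groups, and the ranges overlapped in both genotypes. The log2 differences were -0.16 in WT (SE 0.33, adjusted p = 0.716, 95% interval -0.85 to 0.54) and 0.57 in KO (SE 0.38, adjusted p = 0.22, interval -0.21 to 1.36). Of 4 reported receptors of the adropin, LECT2 and FGL1 proteins, 2 fell in each genotype. Lag3, at 1.17 ± 0.328 CPM in WT saline, changed by -1.41 in WT (SE 0.24, adjusted p = 3.43e-05) and -2.04 in KO (SE 0.29, adjusted p = 4.43e-06). For Met the change was -0.23 in WT (SE 0.09, adjusted p = 0.0357) and -0.38 in KO (SE 0.10, adjusted p = 0.00448). Beside Lag3, an immune receptor, the summed T and B cell markers ran on saline from 1.35 to 3.27 CPM in WT and from 1.44 to 6.67 in KO mice, and on L-AC from 1.06 to 2.06 and from 0.926 to 3.99. Of the 4 such markers tested, 3 fell and 1 rose in WT (median -1.36), and 1 fell and 1 rose in KO (median -1.19), and their part was not tested.

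No member differed detectably between the genotypes. None of the 9 passed the test of KO against WT under saline, nor under L-AC, and in each of these comparisons 0.0141% of all genes passed. At an unadjusted p under 0.05 the number was also 0 in both, against 1.86% of all genes under saline and 4.53% under L-AC, and DESeq2 and limma-voom called 0. The largest differences under L-AC were 0.77 for Fgf21 on the log2 scale (95% interval -0.23 to 1.76) and -0.49 for Enho (-1.89 to 0.91). Under saline the largest were -0.43 for Fgl1 (-1.17 to 0.30) and -0.32 for Inhbe (-0.78 to 0.15). The interval was narrowest for Angptl4, -0.24 to 0.45 under saline and -0.31 to 0.40 under L-AC, and those of Fgf21, Fst, Enho and Fgl1 under both treatments, and of Gdf15 under L-AC, reached past a 2-fold difference in at least 1 direction.

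The test of whether L-AC acted differently in the 2 genotypes, the interaction, also called 0 of 9 members, and 0.0% of all genes. One member, Inhbe, had an unadjusted p under 0.05 (0.046, adjusted p = 1), as did 2.25% of all genes, its L-AC effect being 0.68 larger in KO on the log2 scale (SE 0.32). The higher fold of Fgf21 in KO was not distinguishable from that in WT (interaction 0.56, SE 0.67, adjusted p = 1). The difference for Angptl4, called in WT alone, was -0.06 (SE 0.24, adjusted p = 1). The 2 comparisons of genotype and the 2 of L-AC draw on the same 4 groups of mice.

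Levels were next set side by side per exon length, as CPM per kb. In WT saline Fgl1 led with 541 ± 309, followed by Angptl4 with 112 ± 36.7, Lect2 with 75.8 ± 22.4, Gdf15 with 54.0 ± 20.6, Inhbe with 51.0 ± 16.3 and Fgf21 with 24.4 ± 7.95. Angptl6 at 17.2 ± 4.76, Enho at 2.76 ± 2.6 and Fst at 2.03 ± 1.35 were the lowest (SD, n = 7). The gaps between neighbours from Angptl4 to Inhbe, between Fgf21 and Angptl6, and between Enho and Fst were each smaller than the larger SD of the pair. In WT L-AC Angptl4 stayed second at 149 ± 15.6, and Inhbe came next at 131 ± 41.6, ahead of Gdf15 at 61.5 ± 31.0, Fgf21 at 54.4 ± 32.0 and Lect2 at 39.6 ± 4.07 (n = 6). Within WT, Inhbe had rank 5 on saline and rank 3 on L-AC, and Lect2 had ranks 3 and 6. In KO saline the order of the 9 was that of WT saline, with Angptl4 at 121 ± 14.5, Lect2 at 66.2 ± 8.80 and Inhbe at 40.9 ± 9.21 (n = 5). In KO L-AC Inhbe was second at 168 ± 40.4, within its spread of Angptl4 at 154 ± 20.6, followed by Fgf21 at 92.6 ± 73.1, Gdf15 at 80.2 ± 22.8 and Lect2 at 32.8 ± 12.5 (n = 5). Enho came last in both L-AC groups, at 0.706 ± 0.387 in WT and 0.505 ± 0.202 in KO. Fgl1 alone made up 26.1% to 77.5% of the summed CPM of the members in a library.

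**Figure D3:**
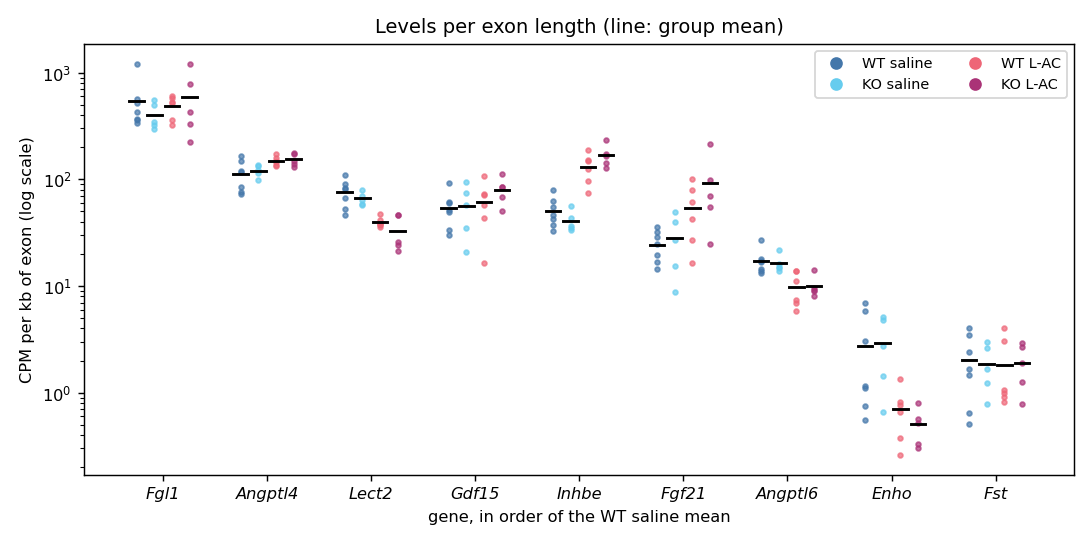
The level per exon length (CPM per kb, log axis) is shown for each gene, in order of the WT saline mean, with 1 point per mouse, colour for the 4 groups and a line at the group mean. Inhbe and Fgf21 stand higher in the L-AC groups than in the saline groups, whereas Lect2, Angptl6 and Enho step down between the saline and the L-AC groups.

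Members differed in how much mice of 1 group varied. The coefficient of variation was lowest for Lect2 and Angptl4 in WT L-AC, at 10.3% and 10.5%, and highest for Enho in WT saline at 94.4%. Fgf21 varied by 32.5% in WT and 59.9% in KO mice on saline, and by 58.8% and 78.9% on L-AC. The highest Fgf21 level in a group was 2.47, 5.65, 6.06 and 8.59 times the lowest, in the same order.

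Within groups some members went up and down together. After each group's mean log2 CPM was subtracted, Fgf21 and Inhbe had a Pearson r of 0.607 (Spearman rho 0.591) over the 23 libraries, and r was 0.485 without the 2 libraries farthest out in Fgf21. Fst and Enho had r = 0.631 (rho 0.575, and 0.678 without 2 libraries), Angptl6 and Inhbe 0.609 (rho 0.5, and 0.635), and Angptl6 and Lect2 0.57 (rho 0.598, and 0.549). Angptl4 and Fst had the most negative, -0.59 (rho -0.436, and -0.427). These are descriptions of 36 pairs measured in the same libraries, and they carry no test. The pairs with Angptl6 include the reads it shares with A230050P20Rik. The Fgf21 and Inhbe relation had a higher r under L-AC, 0.89 in WT and 0.87 in KO mice, than under saline, 0.24 and 0.4, in groups of 5 to 7.

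**Figure D4:**
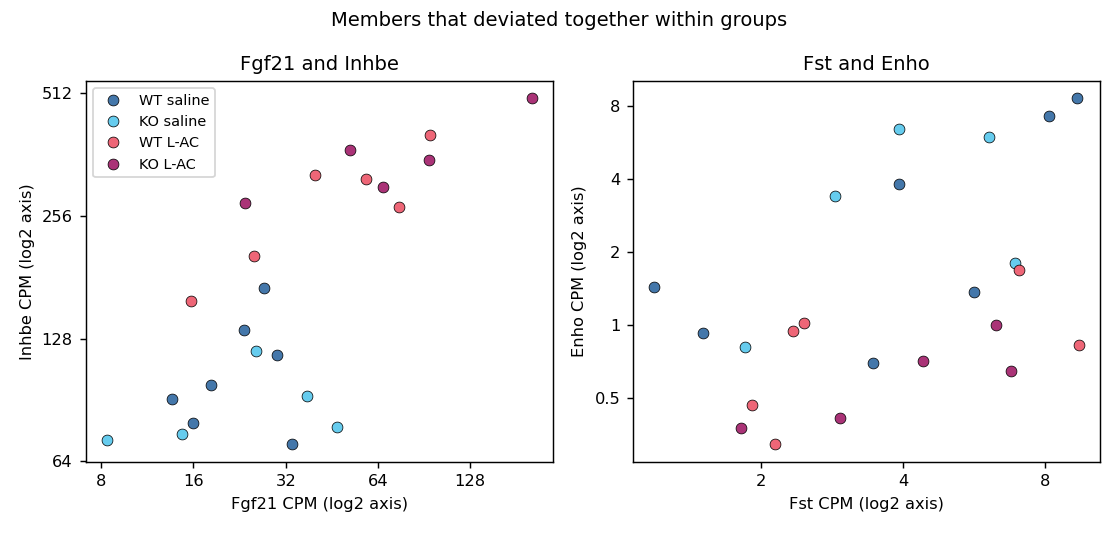
Each point is 1 mouse, coloured by group, with both axes in CPM on a log2 scale; the left panel plots Inhbe against Fgf21 and the right panel Enho against Fst. L-AC mice with more Fgf21 tended to have more Inhbe, with r = 0.89 in WT and 0.87 in KO, and mice with more Fst tended to have more Enho, at a lower level of Enho under L-AC.

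Single libraries stood out over several members. The root mean square deviation from the group means over the 9 members was highest in WT saline replicate 1, at 0.975 on the log2 scale, and in KO L-AC replicate 2, at 0.877, and lowest in WT L-AC replicate 4, at 0.28. WT saline replicate 1 had the highest Fst, Enho, Fgl1 and Fgf21 of its group and the lowest Lect2 and Inhbe. KO L-AC replicate 2 had the highest Fgf21, Gdf15, Inhbe, Angptl6, Lect2 and Fgl1 of its group and the lowest Fst and Enho. In both, the mean log2 CPM of 14 ATF4 target genes was high as well: 3.898 in WT saline replicate 1, against 2.481 to 3.065 in the other WT saline mice, and 4.4 and 4.749 in KO L-AC replicates 2 and 3, against 3.484 to 3.673 in the other KO L-AC mice. KO L-AC replicate 3, at 4.749, had a root mean square deviation of 0.387 over the members. Over the 23 libraries, r between a member's deviations and those of the ATF4 list ran from -0.364 for Angptl4 to 0.411 for Fgl1. For Fgl1 it was -0.01 without the 2 libraries farthest out. It was 0.174 for Fgf21 and -0.114 for Inhbe. The part of the ATF4 target genes in the members' values was not tested. Without WT saline replicate 1 the count of members called in WT was 5, Angptl4 being the one lost, and without KO L-AC replicate 2 the count in KO was 4, Fgf21 being the one lost.

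**Figure D5:**
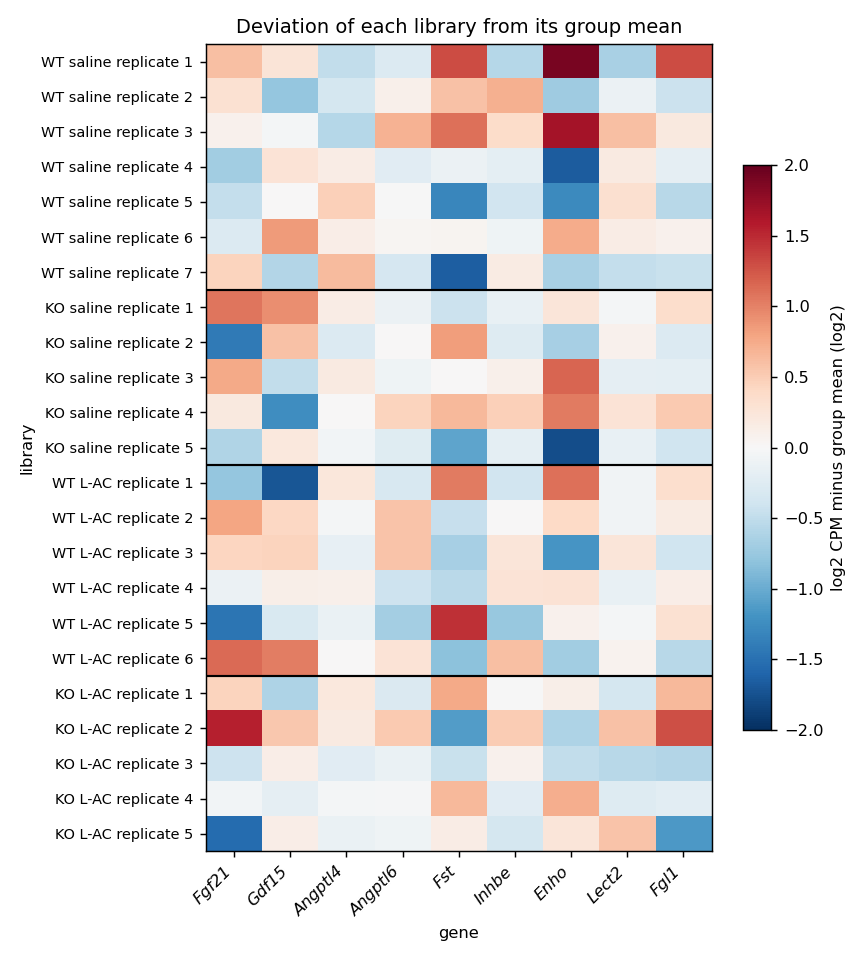
Rows are the 23 libraries in their 4 groups and columns the members; colour gives log2 CPM minus the group mean, from blue (lower) to red (higher), saturating at 2. WT saline replicate 1 and KO L-AC replicate 2 show strong colours in several columns, and Fgf21, Fst and Enho vary most within groups.

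The genes most like each member, by Pearson r of the same deviations over the 23 libraries among 11410 genes, gave short lists that describe shared variation only. Cebpg, a C/EBP factor, was closest to Fgf21 (r = 0.81), with the histone genes Hist1h2bg and Hist1h2bn next (0.799 each). Surf4, a cargo receptor of the secretory pathway, was closest to Gdf15 (0.781). Rbm38 was closest to Angptl4 (0.769), Myl6 and Psme1 to Angptl6 (0.888 and 0.887), and Egf to Fst (0.8). Inhbe stood nearest to Cbx8 (0.816), Lect2 to Trappc3 (0.805), and Enho to the plasma protein genes Serpina1e (0.851) and C8b (0.816). For Fgl1 the closest were Ang (0.883) and the acute phase gene Hp (0.881), which encodes haptoglobin.

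Known targets of PPARA and ATF4 were set beside the members. Of 16 PPARA target genes tested, 12 rose and none fell in each genotype, with a median of 1.62 in WT and 1.53 in KO. Pdk4, a brake on pyruvate oxidation, rose from 26.6 ± 11.4 to 1172 ± 466.3 CPM in WT (5.46, SE 0.37, adjusted p = 1.48e-10), and Plin2, a lipid droplet coat protein, by 2.54 (SE 0.13, adjusted p = 3.38e-12). Hilpda rose by 4.44 (SE 0.34, adjusted p = 7.26e-10), Acot2 by 3.30 (SE 0.29, adjusted p = 4.56e-09) and Cpt1b by 2.36 (SE 0.19, adjusted p = 1.52e-09). Each of these 5 rises was more than 1 log2 unit above those of Fgf21 and Angptl4. Beside these, the PPARA targets Fgf21 and Angptl4 moved by 1.16 and 0.41. Of 14 ATF4 target genes tested, 6 rose and 1 fell in WT (median 0.31), and 9 rose and 1 fell in KO (median 1.38). Slc3a2, an amino acid transporter subunit, rose by 1.51 in WT (SE 0.14, adjusted p = 8.79e-09) and 1.69 in KO (SE 0.16, adjusted p = 2.3e-08). Psat1, of serine synthesis, rose by 1.87 in WT (SE 0.52, adjusted p = 0.00407) and 3.10 in KO (SE 0.62, adjusted p = 0.000282). Sesn2 rose by 1.03 (SE 0.13, adjusted p = 8.65e-07), Mthfd2 by 1.17 (SE 0.41, adjusted p = 0.0192) and Nupr1 by 1.47 (SE 0.54, adjusted p = 0.026) in WT, while Cth, which makes cysteine, fell by 1.77 (SE 0.24, adjusted p = 2.06e-06). Cth was the only gene of the ATF4 list called lower in either genotype. Of all genes tested, 26.6% were called higher and 26.7% lower in WT, and 25.2% and 23.6% in KO. The interaction called neither Psat1 (1.22, SE 0.79, adjusted p = 1) nor Slc3a2 (0.18, SE 0.21, adjusted p = 1). At an unadjusted p under 0.05, the list held 3 of its 14 genes in the interaction (median 0.69), against 2.25% of all genes. For KO against WT it held 6 under L-AC (median 0.54), against 4.53% of all genes, and 0 under saline (median -0.14). Among KO mice on L-AC, the mean log2 CPM of the list was high in replicates 2 and 3, at 4.4 and 4.749. The other KO mice on L-AC, at 3.484 to 3.673, lay within the range of WT mice on L-AC, 3.318 to 3.94. The element TGATGNAA seen in Fgf21 and Inhbe was held by 6 of the 15 ATF4 list promoters in the table and by 0 of the 10 PPARA list promoters. Of all promoters, 3.97% held it. The PPARA element DR1, as an exact match, was held by 0 promoters of either list and by 0.0396% of all promoters. A match that rare cannot tell lists of this size apart. Because the motifs were chosen after the sequences had been seen, these counts are descriptions and carry no test.

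Among 22 transcription factors of the fasting and stress responses, 4 rose and 9 fell in WT (median -0.21), and 2 rose and 9 fell in KO (median -0.12). Creb3l3, a liver factor that acts with PPARA on Fgf21, rose by 0.55 in WT (SE 0.08, adjusted p = 9.8e-06) and 0.80 in KO (SE 0.10, adjusted p = 5.68e-07). Mlxipl, the carbohydrate-response factor ChREBP, fell from 354.0 ± 39.1 to 112.2 ± 25.6 CPM in WT (-1.66, SE 0.14, adjusted p = 2.41e-09), and changed by -1.84 in KO (SE 0.16, adjusted p = 5.26e-09). The lipogenic factor Srebf1 fell by 1.13 in WT (SE 0.21, adjusted p = 8.66e-05), Klf15 by 0.77 (SE 0.16, adjusted p = 0.000272) and the glucocorticoid receptor Nr3c1 by 0.53 (SE 0.08, adjusted p = 5.15e-06). Rora rose by 0.52 in WT (SE 0.11, adjusted p = 0.000581).

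Other liver hormones and secreted regulators moved in both directions, as the members did. Of 26 tested, 6 rose and 11 fell in WT (median -0.20), and 7 rose and 11 fell in KO (median -0.39). Ahsg, fetuin A, fell from 5213 ± 1472 to 2193 ± 301 CPM in WT (-1.25, SE 0.17, adjusted p = 2.03e-06). The retinol carrier Rbp4 fell by 0.53 (SE 0.08, adjusted p = 1.41e-05), Serpinf1, pigment epithelium-derived factor, by 0.66 (SE 0.11, adjusted p = 1.8e-05) and the activator of hepatocyte growth factor Hgfac by 0.74 (SE 0.10, adjusted p = 2.99e-06). Gpnmb, a glycoprotein also made by lipid-laden macrophages, rose from 0.363 ± 0.143 to 6.36 ± 4.05 CPM in WT (4.09, SE 0.62, adjusted p = 9.82e-06), and the lysosomal protease Ctsd by 0.51 (SE 0.07, adjusted p = 5.88e-06). Beside Gpnmb, the summed markers of Kupffer cells and macrophages ran on saline from 40.3 to 145 CPM in WT and from 55.9 to 91.4 in KO mice, and on L-AC from 36.6 to 65.4 and from 31.4 to 117. Of the 5 such markers tested, 1 rose and 3 fell in WT (median -0.82), and 1 rose and 2 fell in KO (median -0.85), and their part was not tested. None of the 12 lists held a called gene in either comparison of genotype or in the interaction.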

How the data were processed

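Liver polyA RNA of 23 mice was sequenced as single-end reads, per the labels' protocols. The deposited values are raw counts of reads per gene, made by the authors with featureCounts 1.4.4 against the UCSC genes of mm10, as the deposited file headers record: exons were grouped by gene, primary alignments kept, strand ignored, and a read counted for every gene it overlapped. STAR 2.4.0 and mm10 (GRCm38) are named in the submitters' processing notes. A read in the shared exons of antisense genes was therefore counted for both. Groups came from the labels. Replicates are separate animals numbered in accession order, which pairs nothing, and no batch is given. No 2 replicates agreed within sampling noise: over genes with at least 20 reads, chi-square per degree of freedom was 44.05 or more in all 56 pairs.

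The filter was filterByExpr of edgeR 4.0.16 in R 4.3.3 (by group, minimum count 10, minimum total 15), and the 14196 genes it kept held 99.95% or more of the reads in every library. A model with the 4 group means was fitted to the TMM-scaled counts of the 23 libraries (glmQLFit, glmQLFTest, quasi-likelihood), in 5 contrasts. P-values are two-sided, and adjusted p-values are Benjamini-Hochberg over all genes tested in a contrast, with calls under 0.05. SE is the size of a log2 fold change divided by the square root of F. CPM use TMM-scaled library sizes, and log2 CPM with a prior count of 1. The fit was tested on simulated counts. The members and gene lists were chosen with earlier results of these data known. From each of 12 lists of 132 symbols, up to 6 called genes with the smallest p in WT were named; some genes that this rule takes are not reported here. From 11410 genes with a mean of at least 1 CPM, those most like each member were taken in order of r. Alternatives were DESeq2 size factors, DESeq2 1.42.0, limma-voom (limma 3.58.1), no filter, a filter of 1 CPM in 5 libraries, age as a covariate, fits of the compared groups alone, a threshold of 0.01, and each library left out in turn.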

Additional observations from a re-analysis of the deposited data

Results flagged for a closer look

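Each of the 9 genes was screened in each of the 4 groups for 1 library far from the rest, by Dixon's ratio of the gap to the range on CPM. Of the 36 groups of values 3 passed the 95% limit, where chance alone passes about 1 in 20. Angptl6 in WT saline replicate 3 was at 42.52 CPM, against 20.7 to 27.91 in the other 6 libraries. Angptl6 in KO L-AC replicate 2 was at 22.06 CPM, against 12.52 to 15.12 in the other 4. Fgl1 in WT saline replicate 1 was at 1361 CPM, against 374.9 to 627.2 in the other 6. The KO L-AC library at 202.9 CPM of Fgf21 did not pass that limit.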

How the results depend on the processing

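No paired analysis was possible because the labels carry no replicate numbers; those used here follow accession order. The number of members called in WT was 6, ranged from 5 to 6 when each library was left out in turn, and was 4 with limma-voom, 4 at an adjusted p under 0.01 and 5 when only the groups compared were fitted. In KO it was 5, ranged from 4 to 5 with a library left out, and was 4 at an adjusted p under 0.01 and 6 with only the groups compared. The DESeq2 size factors, DESeq2, both filters and age as a covariate gave 6 and 5. The comparisons of genotype gave 0 in all of these settings, and so did the interaction, which needs all 4 groups and was not fitted on the compared groups alone. Among single members, Inhbe and Lect2 kept their calls in both genotypes in each of 30 alternatives, as did Angptl6 in WT and Enho in KO. No alternative changed how reads in the exons that Angptl6 shares with A230050P20Rik were counted. The calls that were lost in an alternative were Fgf21 and Angptl4 in WT, each in several, and Enho in WT, Fgf21 in KO and Angptl6 in KO, each in 1. No called fold change turned its sign. Counts of 8 to 254 reads limit Enho, and 48 to 344 limit Fst.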
